A study of Homo sapiens and Mus musculus with 24 samples.

Results

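The response of wild-type mouse embryonic fibroblasts (MEF) to the PI3K inhibitor GDC0032 was measured by paired-end RNA sequencing in 6 of the 24 libraries of the series. These are the 3 wild-type libraries treated with GDC0032 at 500 nM and the 3 wild-type libraries given the solvent DMSO, chosen by their labels and by no measured value. Another 6 MEF libraries, 3 treated with GDC0032 and 3 with DMSO, carry the PIK3CA H1047R change in homozygous form and serve here as the nearest comparison. The other 12 libraries are of a human cell line and were not used.

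Wild-type and mutant cells came from the same kind of fibroblast and differ in the virus they received. Per the labels' protocols, wild-type cells were infected with adenovirus carrying GFP and mutant cells with adenovirus carrying Cre recombinase, so viral infection is shared by both wild-type groups. The titles of the wild-type GDC0032 libraries name the adenoviral CMV vector but not GFP. The inhibitor is named GDC0032 in the sample labels and GDC500 in the treatment text. The sources used here do not give the length of treatment, the strain and age of the embryos, or whether the 3 libraries of a group came from separate cultures, infections or embryos. The p values therefore measure only the spread between these libraries, which may be technical.

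PI3K alpha is a lipid kinase that growth factor receptors and insulin receptors activate, and PIK3CA encodes its catalytic subunit. Its lipid product recruits the kinase AKT, which keeps FOXO transcription factors out of the nucleus and promotes growth through mTOR complexes. In fibroblasts the pathway links serum growth factors to survival, metabolism and cell division. GDC0032, also known as taselisib, competes with ATP in the kinase. The comparison asks which transcripts change under the compound in cells whose PI3K carries no activating change.

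The rows of the MEF files are mouse Ensembl transcript identifiers with no gene names, and the reference used here holds human genes only. All values below are of single transcripts, no mouse gene is named, and only the 4 transcripts that a fixed rule picked are given by identifier. The fibroblast identity of the cells and the level of PIK3CA were not analysed here. Salmon divides read pairs that several transcripts of a gene share by an estimate, so a transcript can gain reads that another one loses. The test does not see that error.

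The 3 wild-type GDC0032 libraries held 42160117 to 44015647 estimated read pairs and the 3 wild-type DMSO libraries 46417836 to 46847044. The mutant libraries held 44494469 to 52510597. Among the 17470 transcripts with a mean of at least 5 CPM (read counts scaled to library size), the median coefficient of variation between replicates was 6.6% in wild-type GDC0032, 5.18% in wild-type DMSO, 5.64% in mutant GDC0032 and 5.25% in mutant DMSO. On the first principal component (13% of the variance) the wild-type GDC0032 libraries lay at -88.4, -91.4 and -61.2, apart from the wild-type DMSO libraries at -8.65, -15.3 and -46.9, of which replicate 3 was nearest to the treated ones. On the third (9.25%) the wild-type GDC0032 libraries lay at -127, -21 and 88, while the wild-type DMSO libraries lay at 31.1, 36.6 and -10.8. Replicates differed beyond sampling noise, with a ratio of chi-square to its degrees of freedom of 9.81 to 11.6 in wild-type GDC0032 and 7.02 to 8.63 in wild-type DMSO, so none was a repeat deposit.

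In the fit of all 12 MEF libraries few transcripts were called under GDC0032 in wild-type fibroblasts, and most of the called changes were slight. By edgeR's quasi-likelihood test with Benjamini-Hochberg adjustment, 635 of 55500 transcripts tested were called at an adjusted p under 0.05, which is 1.14%. At an unadjusted p under 0.05 there were 6649 (12%). Of the 635, 280 rose (0.505% of those tested) and 355 fell (0.64%). Only 41 of the rises (0.0739%) and 52 of the falls (0.0937%) reached 1.5-fold, and 20 and 16 reached 2-fold. The median log2 fold change was 0.30 among the rises and -0.30 among the falls, against a median of 0.00072 over all transcripts tested. The middle 50% of the rises lay between 0.22 and 0.44, and that of the falls between -0.43 and -0.23.

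The number of calls depended on single libraries and on the libraries that share the estimate of spread. It was 136 without wild-type DMSO replicate 1, 171 without wild-type DMSO replicate 2, 269 without wild-type GDC0032 replicate 1, 395 without wild-type GDC0032 replicate 2, 420 without mutant DMSO replicate 1 and 418 without mutant DMSO replicate 2. It was 61 when only the 6 wild-type libraries were fitted (22 rose and 39 fell), of which 52 were among the 635. DESeq2 gave an adjusted p to only 27489 transcripts and called 2700 of them, which held 612 of the 635.

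All 635 called transcripts had GDC0032 and DMSO values that did not overlap, as had 17.7% of all transcripts tested (8.83% with GDC0032 above DMSO and 8.83% with GDC0032 below). The rises together held 5.14%, 4.96% and 4.87% of the summed TPM (abundance per transcript length) in the GDC0032 libraries, against 4.16%, 4.17% and 4.36% in the DMSO libraries. The falls held 2.38%, 2.42% and 2.4% in the GDC0032 libraries, against 2.91%, 2.92% and 2.84% in the DMSO libraries. These shares describe transcripts that the same libraries chose.

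**Figure D1:**
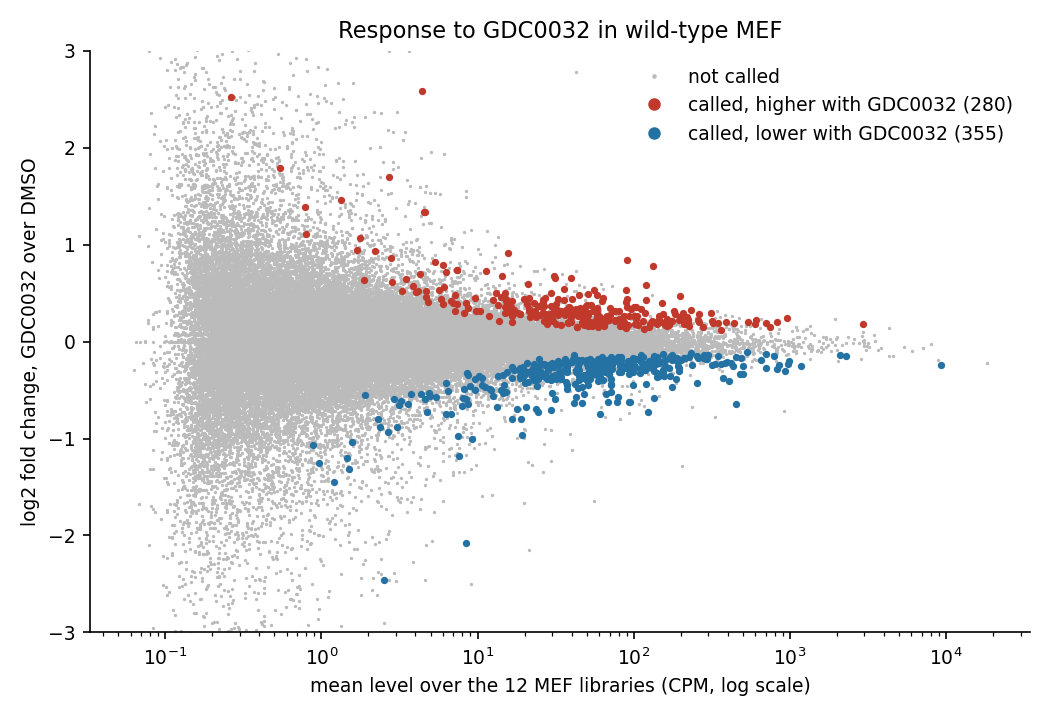
Log2 fold change of GDC0032 over DMSO in wild-type MEF (vertical axis) against the mean level over the 12 MEF libraries in CPM (horizontal axis, log scale), 1 point per transcript. The 280 called rises and 355 called falls lie close to 0 at high levels; 994 transcripts, 16 of them called, lie beyond 3 log2 units and are not drawn.

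The calls came mostly from well measured transcripts. Among the 1608 transcripts with a mean of 100 CPM and over, 157 were called (9.76%), with 62 rises and 95 falls and a median absolute log2 change of 0.22. From 20 to 100 CPM, 319 of 6331 were called (5.04%), 137 up and 182 down. From 5 to 20 CPM, 98 of 9531 were called (1.03%), 48 up and 50 down. From 1 to 5 CPM the count was 43 of 15787 (0.272%), and under 1 CPM it was 18 of 22243 (0.0809%). The median standard error of a log2 fold change was 0.0381 in the highest of these classes and 0.559 in the lowest. A change of 0.22, the median of the calls at 100 CPM and over, is below the standard error of the lowest class. The part of depth and of replicate spread in these standard errors was not tested.

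Among the calls, large fold changes went with low levels and with estimates of 0. All 18 calls under 1 CPM exceeded 1.5-fold, with a median absolute log2 change of 7.31, whereas 4 of the 157 calls at 100 CPM and over did. At the median standard error of 0.559 under 1 CPM, only large changes could pass the test. Of the 36 calls of at least 2-fold, 32 had a mean under 5 CPM in the wild-type libraries, and 16 had an estimate of 0 in at least 1 of the 6 libraries. Over all 55500 transcripts tested, 38033 had such a mean and 7291 (13.1%) such a 0. None of the 599 smaller calls held such a 0. A 0 beside a clear level also occurred between replicates of 1 group. Of the transcripts that reached 5 CPM in a library, 176 of 18728 in wild-type GDC0032 (0.94%) and 125 of 18592 in wild-type DMSO (0.672%) were estimated at 0 in another library of that group.

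Longer transcripts were called more often than short ones, and they were also better measured. Of transcripts of 4000 nt and over, 2.71% were called (250 of 9232), against 0.252% of those under 500 nt (11 of 4370). Their median levels were 7.47 and 0.485 CPM. Within the range of 5 to 100 CPM the called share was 3.61% at 4000 nt and over (168 of 4653), 2.49% from 2000 to under 4000 nt, 2.45% from 1000 to under 2000 nt, 1.13% from 500 to under 1000 nt (20 of 1768) and 0.702% under 500 nt (2 of 285). In the class of 500 to under 1000 nt, 5 rose and 15 fell. The median log2 fold change of all transcripts in a length class stayed between -0.0058 and 0.02 over all levels. The median length was 2995 nt for rises, 3445 nt for falls and 1792 nt for all transcripts tested. The part of level and of standard error in the length pattern was not tested.

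**Figure D2:**
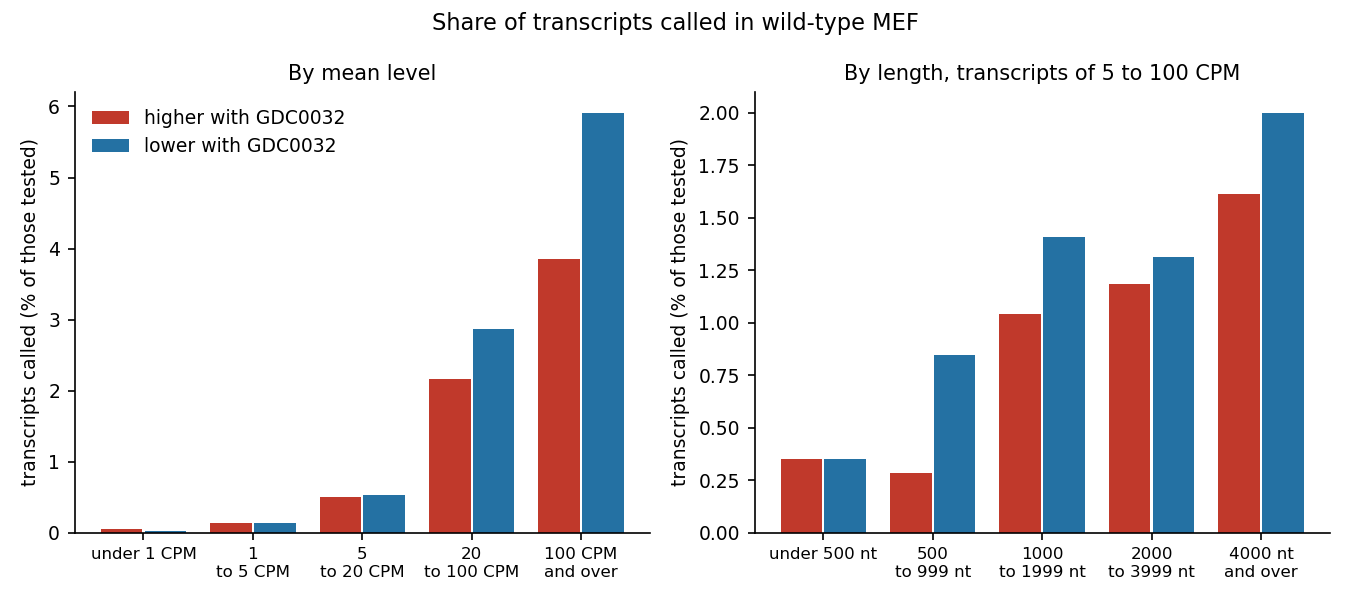
Percentage of tested transcripts called in wild-type MEF, by mean level in CPM (left) and by transcript length in nt among transcripts of 5 to 100 CPM (right); bars show rises and falls with GDC0032. The called share climbs with level, to 9.76% in all at 100 CPM and over, and is 3.61% in all in the longest class.

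Of the called transcripts, 249 rises and 325 falls had a mean of at least 5 CPM, and the rule took the most changed of them, 2 in each direction. The rise with the closer replicates was ENSMUST00000108304.8, of 2006 nt. It had 22.9, 20.2 and 20.9 CPM in the GDC0032 libraries, against 10.9, 12.5 and 10.7 CPM in the DMSO libraries. All 3 treated libraries lay well above all 3 controls. The means were 21.4 ± 1.4 and 11.4 ± 1.03 CPM (SD, n = 3 each), with a log2 fold change of 0.91 (SE 0.079, edgeR adjusted p = 0.00103). In TPM the mean was 22.3 with GDC0032 and 12.0 with DMSO.

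The same transcript had 23.1, 19.97 and 21.0 CPM in mutant GDC0032 and 8.72, 8.56 and 8.44 CPM in mutant DMSO. Its rise in mutant cells was 1.32 on the log2 scale (SE 0.08, edgeR adjusted p = 9.26e-06). The difference between the responses did not pass edgeR's test over all transcripts (log2 0.41, SE 0.111, adjusted p = 0.155). It passed when only transcripts of at least 5 CPM were fitted (log2 0.44, adjusted p = 0.0453) and with DESeq2 (log2 0.41, adjusted p = 0.013). With DMSO it was lower in mutant than in wild-type cells (log2 -0.40, edgeR adjusted p = 0.0102). That comparison uses the same wild-type DMSO libraries and called 9.7% of the transcripts. Treated cells of both genotypes had means of 21.4 CPM. Over the alternatives the wild-type log2 fold change was 0.85 to 0.98, and the call was lost only with a replicate block (adjusted p = 0.0726 with 12 libraries and 0.557 with 6).

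The other rise was ENSMUST00000128570.8, of 8436 nt, which was estimated at 4.81, 7.89 and 22.1 CPM in the GDC0032 libraries and at 0 in all 3 DMSO libraries. Every treated library was above the controls, but the third treated library was far above the other two. The fitted log2 fold change, against 0 in every DMSO library, was 12.1 (SE 2.09, edgeR adjusted p = 0.0437). A floor of 3 read pairs per DMSO library is 0.0647 CPM, and the treated mean of 11.6 ± 9.21 CPM (SD, n = 3) was 179-fold above it. Without wild-type GDC0032 replicate 3 the mean was 6.35 CPM, 98.1-fold above the floor. The floor covers counting error in the DMSO libraries. It covers neither the spread of the treated libraries nor the division of reads among transcripts. In mutant cells it had 22.6, 6.75 and 3.58 CPM with GDC0032 and 2.0, 9.98 and 8.31 CPM with DMSO, groups that overlapped. The difference between the responses had an adjusted p of 0.111 with edgeR and passed with DESeq2 (adjusted p = 3.04e-07). The wild-type call was lost without any 1 of the 6 wild-type libraries (adjusted p = 0.0638 to 0.144) and without any mutant library but GDC0032 replicate 1 (adjusted p = 0.0506 to 0.0782). It was also lost with only the 6 wild-type libraries (adjusted p = 0.149) and without the low-count filter (adjusted p = 0.109). A replicate block lost it too (edgeR adjusted p = 0.305 with 12 libraries and 0.557 with 6).

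Among called transcripts of at least 5 CPM, the largest fall was that of ENSMUST00000052867.8, a short transcript of 402 nt. It had 3.13, 1.03 and 4.54 CPM in the GDC0032 libraries, against 14.5, 10.9 and 11.5 CPM in the DMSO libraries. Each treated library was below each control, and the treated ones spread widely around their mean. The means were 2.9 ± 1.77 and 12.3 ± 1.94 CPM (SD, n = 3 each), with a log2 fold change of -2.08 (SE 0.392, edgeR adjusted p = 0.0398). In mutant cells it had 5.58, 7.54 and 7.44 CPM with GDC0032 and 11.9, 11.9 and 10.7 CPM with DMSO. The mutant GDC0032 libraries were all below the mutant DMSO libraries, with a log2 difference of -0.75 that did not pass in the fit of all 12 libraries (edgeR adjusted p = 0.281). It passed when only the 6 mutant libraries were fitted (log2 -0.74, adjusted p = 0.0208) and without wild-type GDC0032 replicate 2 (log2 -0.74, adjusted p = 0.0255). The difference between the responses did not pass (edgeR adjusted p = 0.362). The wild-type call was lost when only the 6 wild-type libraries were fitted (adjusted p = 0.228) and without wild-type GDC0032 replicate 1 or any wild-type DMSO library (adjusted p = 0.0798 to 0.147). It was also lost without any 1 mutant library (adjusted p = 0.0573 to 0.0693) and without the low-count filter (adjusted p = 0.0727). A replicate block lost it too (edgeR adjusted p = 0.173 with 12 libraries and 0.575 with 6).

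The other fall was ENSMUST00000211554.1, of 4638 nt, which went in opposite directions in the 2 genotypes. It had 3.47, 5.08 and 2.77 CPM in wild-type GDC0032, against 9.36, 7.88 and 8.32 CPM in wild-type DMSO. It had 14.2, 11.1 and 9.44 CPM in mutant GDC0032, against 6.57, 5.68 and 7.72 CPM in mutant DMSO. The groups did not overlap in either genotype. The log2 fold change was -1.18 in wild-type cells (SE 0.223, edgeR adjusted p = 0.0398) and 0.80 in mutant cells (SE 0.218, edgeR adjusted p = 0.0439). The mutant call was lost without wild-type GDC0032 replicate 1, any wild-type DMSO library, mutant GDC0032 replicate 1 or 2, or any mutant DMSO library (adjusted p = 0.0576 to 0.153), and without the low-count filter (adjusted p = 0.0572). With a replicate block the mutant call was lost as well (edgeR adjusted p = 0.129). The interaction, mutant response minus wild-type response, was 1.98 (SE 0.312, edgeR adjusted p = 0.0245). With 1 library left out the adjusted p of the interaction was 0.0137 to 0.0718, and the call was lost without wild-type GDC0032 replicate 1, any wild-type DMSO library, mutant GDC0032 replicate 1, or mutant DMSO replicate 1 or 2. The wild-type call was lost when only the 6 wild-type libraries were fitted (adjusted p = 0.152) and without any wild-type library but GDC0032 replicate 2 (adjusted p = 0.0787 to 0.152). It was also lost without mutant GDC0032 replicate 2 or any mutant DMSO library (adjusted p = 0.0557 to 0.0669). A replicate block lost it too (edgeR adjusted p = 0.205 with 12 libraries and 0.575 with 6).

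**Figure D3:**
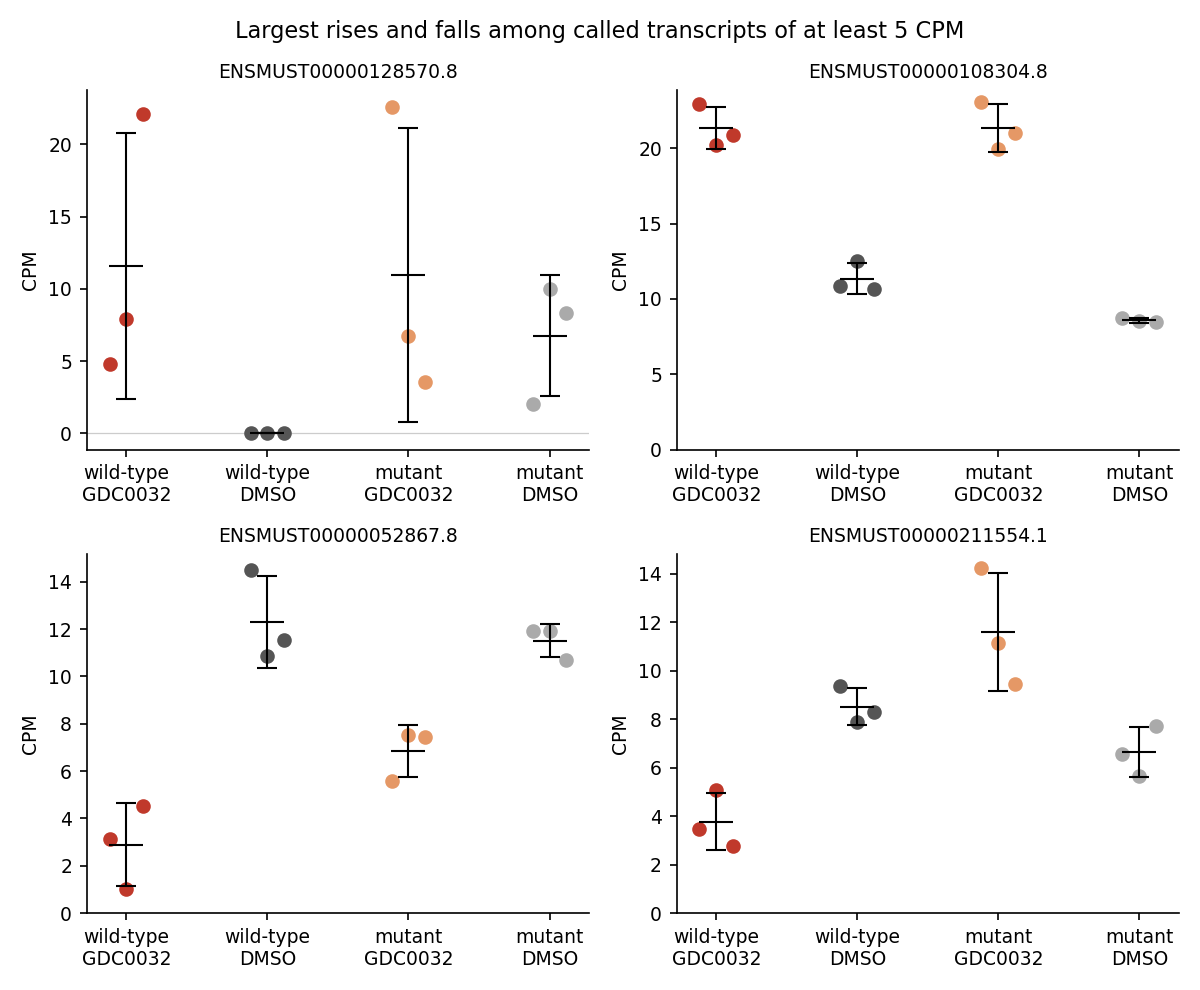
Level in CPM of the 4 transcripts in each of the 12 MEF libraries, by group; points are libraries, and bars give the mean and SD of 3. ENSMUST00000108304.8 sits at 20.2 to 22.9 CPM in wild-type GDC0032 and 10.7 to 12.5 CPM in wild-type DMSO, and ENSMUST00000211554.1 is below its DMSO libraries in wild-type cells and above them in mutant cells.

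After these 4, the called changes at 5 CPM and over were modest. The rise ranked next had a log2 fold change of 0.84 and the one ranked twelfth 0.67; the corresponding falls were -1.0 and -0.71. Only 15 of the 249 rises and 28 of the 325 falls at this level reached 1.5-fold. Their middle 50% ran from 0.22 to 0.38 and from -0.38 to -0.22.

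The same compound and dose in mutant MEF gave a larger response, in which the wild-type changes were mostly contained. In mutant cells 5560 transcripts were called (10%), with 2382 rises (4.29%) and 3178 falls (5.73%). Of the rises 890 (1.6%) and of the falls 647 (1.17%) reached 1.5-fold. With only transcripts of at least 5 CPM fitted, the split was 2786 rises and 2775 falls. The mutant comparison shares no library with the wild-type one, though both share the scaling and the estimate of spread. Of the 635 wild-type calls, 507 were also called in mutant cells, which is 79.8% of the wild-type calls and 9.12% of the mutant ones. Most wild-type calls lay at 20 CPM and over, where mutant calls were common too. Of all transcripts tested, mutant cells had 33.9% called from 20 to 100 CPM and 39.1% at 100 CPM and over. Among those 507, 209 rose in both, 294 fell in both and 4 were called in opposite directions. The sign was the same in 93.7% of the 635, and the share over all transcripts tested is not given here. The wild-type rises had a median log2 fold change of 0.41 in mutant cells and 0.30 in wild-type cells, and the wild-type falls -0.39 in mutant cells and -0.30 in wild-type cells. Of the 128 calls made in wild-type cells alone, 17 differed between the genotypes by the interaction test.

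Transcripts chosen by the mutant response alone show how far wild-type cells followed it. The 2382 transcripts that rose in mutant cells had a median log2 fold change of 0.48 there and of 0.16 in wild-type cells, and 88.4% of them were higher with GDC0032 in wild-type cells, as were 50.1% of all transcripts tested. The 3178 that fell had a median of -0.35 in mutant cells and -0.12 in wild-type cells, where 14.3% were higher with GDC0032. Among those past 1.5-fold in mutant cells, the wild-type median was 0.26 for the 890 rises and -0.27 for the 647 falls, against 0.84 and -0.78 in mutant cells. The mutant medians are those of the libraries that made the choice and are given as a description.

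The shift was present in every wild-type GDC0032 library. Relative to the mean of the wild-type DMSO libraries, the median log2 level of the 2382 transcripts was 0.169, 0.158 and 0.14 in the GDC0032 libraries and -0.00317, -0.00436 and 0.00954 in the DMSO libraries. That of the 3178 transcripts was -0.126, -0.108 and -0.112 in the GDC0032 libraries and 0.00509, 0.00436 and -0.00638 in the DMSO libraries. The groups did not overlap in either set, nor over all 55500 transcripts. There the medians were 0.0119, 0.0105 and 0.00821 in the GDC0032 libraries and 0.00455, 0.00386 and 0.00258 in the DMSO libraries. The lack of overlap alone is thus not particular to the sets. The scale is centred on the wild-type DMSO mean, so the wild-type DMSO libraries lie near its origin by construction. On the same scale the mutant libraries stood at 0.164, 0.135 and 0.145 with GDC0032 and -0.333, -0.315 and -0.315 with DMSO for the first set, and at -0.0912, -0.0712 and -0.101 with GDC0032 and 0.27, 0.261 and 0.237 with DMSO for the second. The mutant DMSO libraries stood farthest from the wild-type DMSO libraries, and the mutant GDC0032 libraries near the wild-type GDC0032 ones. The mutant libraries also chose the sets.

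**Figure D4:**
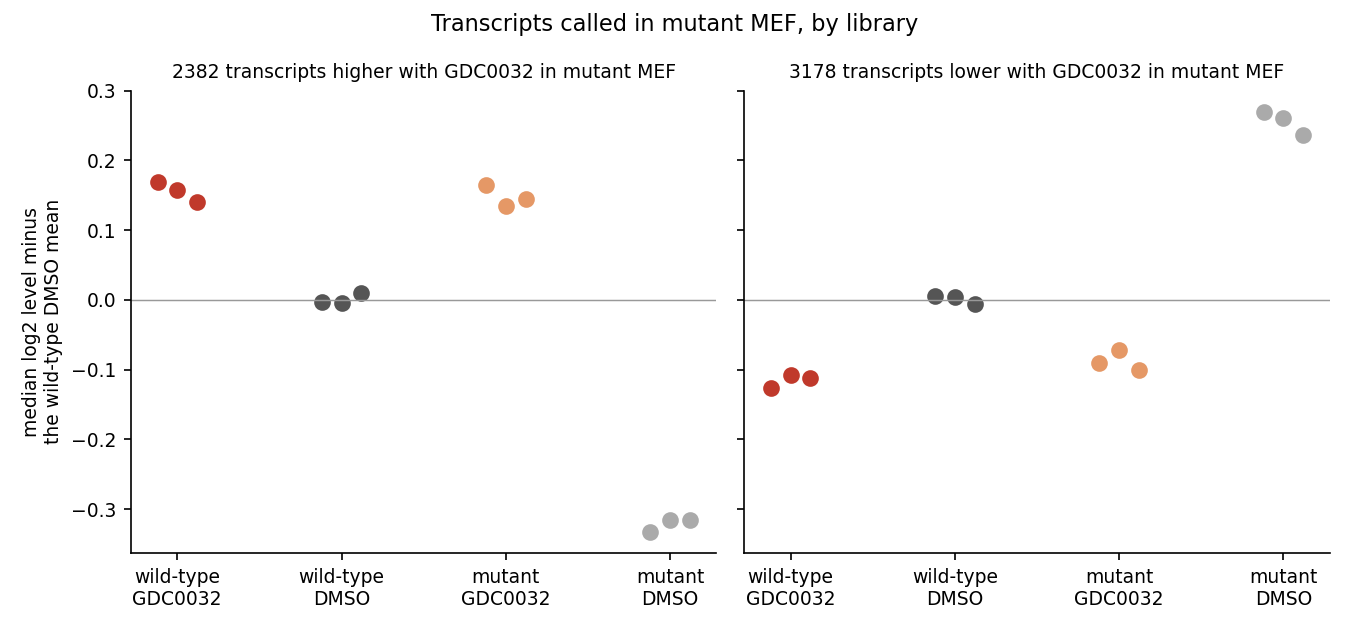
Median log2 level relative to the mean of the wild-type DMSO libraries (vertical axis) in each of the 12 MEF libraries, for the 2382 transcripts that rose (left) and the 3178 that fell (right) with GDC0032 in mutant MEF; points are libraries. Wild-type GDC0032 libraries lie at 0.14 to 0.169 on the left and -0.126 to -0.108 on the right. The wild-type DMSO libraries, on whose mean the scale is centred, lie near 0. The mutant libraries chose the transcripts.

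Across transcripts the log2 fold changes of the genotypes correlated more closely where levels were higher. Pearson's r between the wild-type and the mutant log2 fold changes was 0.0559 over all 55500 transcripts (Spearman's rho 0.227), 0.318 over the 17470 of at least 5 CPM (rho 0.504), 0.585 over the 7939 of at least 20 CPM (rho 0.601) and 0.652 over the 1608 of at least 100 CPM (rho 0.622). These describe transcripts of 12 libraries, which are not independent replicates. The median standard error of the wild-type log2 fold change was 0.249 over all transcripts and 0.0381 at 100 CPM and over. The part of measurement error in these correlations was not tested.

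The interaction tests where the wild-type response differed from the mutant one. It was called for 459 transcripts (0.827%), with 174 positive (0.314%) and 285 negative (0.514%) differences, mutant minus wild-type. Of these 459, 436 were called in mutant cells and 121 in wild-type cells. In 339 both responses had the same sign and the mutant one was larger, in 5 the wild-type one was larger, and in 115 the signs were opposite. The 174 with a positive difference had a median log2 fold change of 0.13 in wild-type cells and 0.60 in mutant cells, and the 285 with a negative one -0.099 in wild-type cells and -0.48 in mutant cells. The count was 136 to 308 with any 1 of the 12 libraries left out, and leaving out any one of them but wild-type GDC0032 replicate 3 lowered it by over 1.5-fold. Vector and genotype cannot be told apart in this difference.

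**Figure D5:**
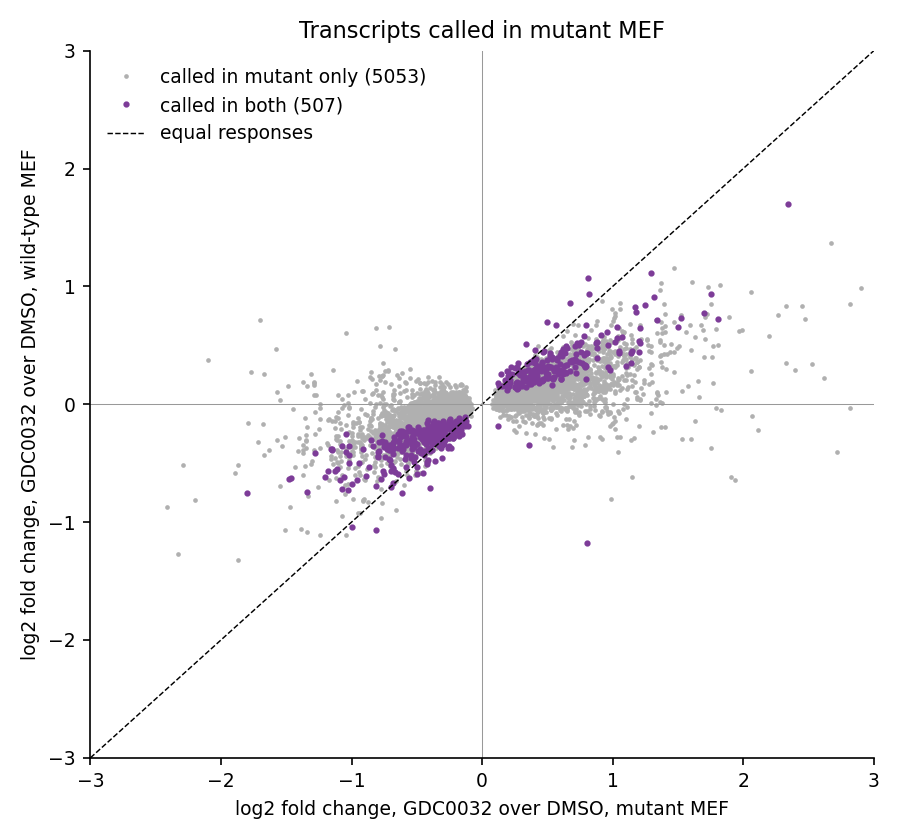
Log2 fold change of GDC0032 over DMSO in wild-type MEF (vertical axis) against mutant MEF (horizontal axis) for the 5560 transcripts called in mutant MEF; purple points are the 507 called in both, and the dashed line marks equal responses. Most points have the same sign in both genotypes and lie nearer to 0 in wild-type cells; 62 transcripts beyond 3 log2 units are not drawn.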

How the data were processed

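Per the submitters' processing notes, reads were handled with Trim Galore 0.6.1, cutadapt, Salmon 1.2.1 and DESeq2 1.28.1, and the mouse build was GRCm38. No label used here gives RNA selection or strandedness. For 116248 mouse transcripts, the deposited files give expected counts (estimated read pairs), TPM that the authors scaled within each library, and transcript lengths, per the file headers. Deposited counts were rounded. All 12 MEF libraries were fitted together as 4 group means with edgeR 4.0.16 in R 4.3.3 (TMM scaling, filterByExpr, robust quasi-likelihood fit, 8 residual degrees of freedom), two-sided, with Benjamini-Hochberg adjustment over the 55500 transcripts kept. The 60748 others were too low to test. CPM are counts relative to the TMM-scaled library size. The fit was tested on simulated data. Named transcripts are the 2 largest rises and 2 largest falls among those called, with a mean of at least 5 CPM over the 6 wild-type libraries and no overlap between groups. DESeq2 1.42.0 was an alternative. Planned gene lists, gene sums and the comparison with the human line were not run, since the identifiers have no gene names here. The comparison, the lists and the rules were chosen with earlier results of these data known.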

Additional observations from a re-analysis of the deposited data

Results flagged for a closer look

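The response to GDC0032 differed between mutant and wild-type MEF for 459 transcripts by edgeR's interaction test, at adjusted p under 0.05. ENSMUST00000211554.1 was among them. Of the other 3 named transcripts, DESeq2 also called the interaction of ENSMUST00000128570.8 (adjusted p = 3.04e-07) and ENSMUST00000108304.8 (adjusted p = 0.013). ENSMUST00000211554.1 fell in wild-type cells and rose in mutant cells, with no overlap between treated and control libraries in either genotype. Its interaction was 1.98 on the log2 scale (SE 0.312, edgeR adjusted p = 0.0245). With each of the 12 libraries left out in turn the difference was 1.8 to 2.26, and with a replicate block its adjusted p was 0.213. Groups of 3 libraries are too small for a test of outlying values.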

How the results depend on the processing

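The count of calls in wild-type MEF was 635 of 55500 transcripts tested. It was 2700 of 27489 with DESeq2, which gave the others no adjusted p, and 1416 of 17470 at a mean of at least 5 CPM. It was 401 of 92208 without the low-count filter, 61 of 50916 with only the 6 wild-type libraries, and 136 to 590 with 1 library left out. The sources used here do not say whether same-numbered libraries belong together. Deviations of same-numbered wild-type libraries correlated at -0.028 to 0.0038, and 1 of 3 correlated best with its own number. These values cover all 55500 transcripts, whose median level was 1.67 CPM. The correlations were not computed over well measured transcripts alone, so they cannot decide whether the libraries were paired. With a replicate block edgeR called 2 transcripts (5629 at an unadjusted p under 0.05), and with a replicate block on the 6 wild-type libraries 0 (4061 at an unadjusted p under 0.05). The mutant count (5560) was 3079 with the replicate block and 3728 to 5491 with 1 library left out. The interaction count (459) was 2380 of 26416 with DESeq2 and 1004 of 17470 at 5 CPM and over (520 positive and 484 negative). It was 205 of 92208 without the filter, 4 with the block (5373 at an unadjusted p under 0.05) and 136 to 308 with 1 library left out.

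RLE scaling and effective-length offsets kept all 3 counts within 1.5-fold. The wild-type medians of transcripts called in mutant MEF kept their sign in every setting, at 0.148 to 0.163 for rises and -0.123 to -0.105 for falls, the last value at 5 CPM and over. The mutant log2 difference of ENSMUST00000128570.8, 0.70 and not called, was -0.38 without mutant GDC0032 replicate 1 and at most 1.12 with another library left out. Settings on 5 CPM, on left-out libraries of the other genotype and on the 6 mutant libraries alone were chosen after seeing the data. The causes of these shifts were not tested.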

Other observations

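Some transcripts were present in all libraries of 1 wild-type group and at 0 in all libraries of the other. In 9 transcripts each GDC0032 library had at least 1 CPM and each DMSO library was at 0, and 2 of these were called. In 14 transcripts each GDC0032 library was at 0 and each DMSO library had at least 1 CPM, and 3 of these were called. None of these 23 showed the same pattern in mutant MEF.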
